A study of Homo sapiens with 8 samples.

Results

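The genes described here build the cornified envelope and the lipid barrier of the outer epidermis. They were taken from a list of 57 cornified envelope, barrier lipid and late differentiation genes, and every listed gene with an annotated probe set was kept. This gave 47 genes out of 14884 genes with an annotated probe set on the array, with loricrin carried under its current symbol LORICRIN. The other 10 listed genes (TGM1, TGM3, ABCA12, ALOX12B, CYP4F22, SMPD1, LIPN, CASP14, SERPINB7 and SPINK5) had no annotated probe set and were not analysed here. Gene expression had been measured on 8 arrays of SCC13 cells, a long-used cell line grown out of a squamous carcinoma of human skin, with 2 arrays for each of 4 short hairpin RNAs. The tested hairpins were shRING1B, shEZH2 and shBMI1, aimed at 3 Polycomb proteins that take part in gene silencing, and the control was shGFP, aimed at a jellyfish protein that human cells lack. RING1B (gene RNF2) and BMI1 are subunits of Polycomb repressive complex 1, and EZH2 is the histone methyltransferase of Polycomb repressive complex 2. The sources used here give no other treatment, no time after the hairpin was introduced and no number of hairpin sequences or clones.

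As keratinocytes move up through the epidermis they stop dividing and replace their plasma membrane with the cornified envelope, a shell of proteins that transglutaminases cross-link to each other. Envoplakin, periplakin and involucrin form the early scaffold, and loricrin, the small proline-rich (SPRR) proteins and the late cornified envelope (LCE) proteins reinforce it. Ceramides with very long acyl chains are then attached to its outer face and fill the space between the dead cells, which keeps water in. Many of the protein genes lie side by side on chromosome 1 in the epidermal differentiation complex, whose genes are turned on late in differentiation. In mouse epidermis, Polycomb complexes are known to restrain part of this programme in basal progenitor cells.

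The promoters of these genes share sequence features, and 5 are printed, all of genes named in the comparisons below: a pair of near copies from the SPRR family, 2 others with the same motif and a CpG-rich one for contrast. Each is the 250 bases before the RefSeq transcription start on assembly GRCh38.p14, read 5′ to 3′ on the gene's strand. Capitals mark the AP-1 motif TGANTCA and the TATA motif TATAAA, each searched on both strands. SPRR2A lies at chr1:153057513-153057762 on the minus strand, SPRR2F at chr1:153113517-153113766 on the minus strand, SCEL at chr13:77535456-77535705 on the plus strand, CLCA2 at chr1:86423921-86424170 on the plus strand and ELOVL4 at chr6:79947554-79947803 on the minus strand.
SPRR2A: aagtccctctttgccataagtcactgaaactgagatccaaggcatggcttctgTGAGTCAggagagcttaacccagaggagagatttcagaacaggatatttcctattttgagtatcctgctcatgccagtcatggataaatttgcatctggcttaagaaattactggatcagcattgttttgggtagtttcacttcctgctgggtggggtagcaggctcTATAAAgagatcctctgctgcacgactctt
SPRR2F: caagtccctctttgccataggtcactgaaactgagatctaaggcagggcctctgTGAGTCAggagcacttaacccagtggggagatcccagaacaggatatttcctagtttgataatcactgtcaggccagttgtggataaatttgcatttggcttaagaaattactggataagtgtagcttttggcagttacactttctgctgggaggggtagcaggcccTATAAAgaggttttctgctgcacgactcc
SCEL: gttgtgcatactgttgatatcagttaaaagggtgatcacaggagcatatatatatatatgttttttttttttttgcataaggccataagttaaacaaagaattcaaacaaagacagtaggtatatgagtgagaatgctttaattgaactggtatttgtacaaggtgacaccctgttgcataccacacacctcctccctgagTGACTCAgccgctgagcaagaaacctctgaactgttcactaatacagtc
CLCA2: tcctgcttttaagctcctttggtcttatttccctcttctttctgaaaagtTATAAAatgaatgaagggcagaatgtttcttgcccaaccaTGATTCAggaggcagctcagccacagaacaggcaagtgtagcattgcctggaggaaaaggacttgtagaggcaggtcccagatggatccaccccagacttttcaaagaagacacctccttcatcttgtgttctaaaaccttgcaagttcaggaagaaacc
ELOVL4: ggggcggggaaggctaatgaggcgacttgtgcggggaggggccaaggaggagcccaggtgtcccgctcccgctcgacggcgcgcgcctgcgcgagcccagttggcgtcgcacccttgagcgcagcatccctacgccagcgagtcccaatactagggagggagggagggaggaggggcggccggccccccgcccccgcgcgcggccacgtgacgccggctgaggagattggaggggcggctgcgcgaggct

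The SPRR2A and SPRR2F windows were near copies, with 213 identical bases, 36 mismatches and 2 gap bases in their alignment (84.9% identity). In SPRR2A the AP-1 motif began 197 bases and the TATA motif 30 bases before the start, and in SPRR2F these distances were 196 and 29 bases. The SCEL window held an AP-1 motif 49 bases before the start and no TATAAA, and the CLCA2 window held TGATTCA 160 bases and TATAAA 200 bases before it. In the ELOVL4 window neither run of letters was found, and the sequence held 30 CpG dinucleotides, against 1 in each of the SPRR2A, SPRR2F and SCEL windows and 0 in that of CLCA2.

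Promoter windows were found for 40 of the 47 members and for 27305 genes in all. The AP-1 motif, bound by FOS and JUN dimers, was present in 16 of the 40 members (40%), against 6.60% of all genes. It occurred in 6 of 8 SPRR windows, among them SPRR1A, SPRR1B, SPRR3 and SPRR2G, and in those of IVL, LORICRIN, FLG, FLG2, RPTN and TCHH, but in 0 of 9 LCE windows. TATAAA was found in 20 of the 40 members (50%), against 11.1% of all genes, with 7 of 8 SPRR windows and 4 of 9 LCE windows among them. CpG dinucleotides, the sites of DNA methylation, are rare in most of the genome and dense in CpG islands. The observed over expected CpG ratio had a median of 0.130 in the members, against 0.556 in all genes. A ratio of at least 0.6 was reached by 4 members, ELOVL4, UGCG, CERS3 and ALOXE3, all of them enzymes of lipid metabolism, against 47.4% of all genes. The window of PNPLA1, another barrier lipid gene, held 0 CpG dinucleotides. A motif match describes letters only, and the absence of one says only that these letters were not in the window.

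**Figure D1:**
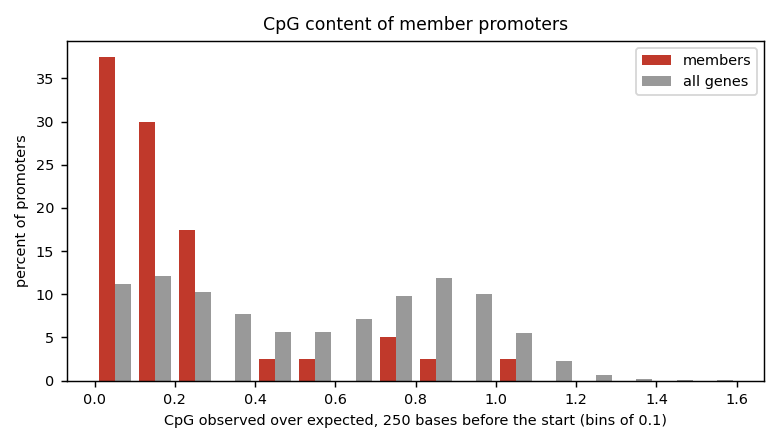
CpG ratio (observed over expected, in bins of 0.1, horizontal axis) of the 250 bases before the start, as percent of promoters (vertical axis), for 40 members (red) and 27305 genes (grey). Members are concentrated at low ratios with a median of 0.130, while all genes spread over both low and high ratios with a median of 0.556.

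The deposited values are log2 signals per probe set that the authors made with RMA, and the median probe set of an array was at 5.49 to 5.52. Arrays of the same hairpin correlated at 0.995 to 0.996 over all genes, with 1 probe set per gene, and arrays of different hairpins at 0.992 to 0.996. EZH2, the 1 targeted gene with an annotated probe set, stood at 8.95 and 9.03 in shEZH2 cells, against 9.83 and 9.97 in shGFP cells (-0.91 ± 0.12, limma adjusted p = 0.0183). Knockdown of RNF2 and BMI1 could not be checked in the same way. Both shEZH2 arrays carry titles that begin with SCCL3 where the other titles begin with SCC13, although the cell line is given as SCC13 for all, so a line or batch of their own and the EZH2 hairpin cannot be told apart. Nothing in the labels states that paired arrays were separate cultures. The p-values then reflect no more than array-to-array spread, and part or all of that may be technical. Keratinocyte lineage genes were bright, with KRT5 at 10.1 to 10.6 and SFN at 11.4 to 11.6 over the 8 arrays. Of 6 measured suprabasal markers, KRT1 (4.12 to 4.64), DSG1 (3.51 to 4.01), DSC1 (4.53 to 4.95) and KRT2 (mean 5.01) were dim, while KRTDAP, itself a member, averaged 5.99 and KRT10 averaged 6.83, near the median gene.

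Signal depends on the probes as well as on the RNA, so the members' signals are not an order of RNA amounts. No detection call is given. Of the 47 members, 17 had a mean below 5.32, the 25th percentile of all genes, where RMA compresses differences, and 4 a mean above 8.62, the 75th percentile. Those 4 were the fatty acid elongase ELOVL4 (mean 9.57), the secreted protein dermokine (DMKN, 9.53), the glucosylceramide synthase UGCG (9.20) and cornifelin (CNFN, 8.76). The dimmest were SPRR2E (3.14), LCE1B (3.70) and filaggrin 2 (FLG2, 3.87). In bulk RNA, fewer cells of a differentiated type and less RNA per cell cannot be told apart.

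**Figure D2:**
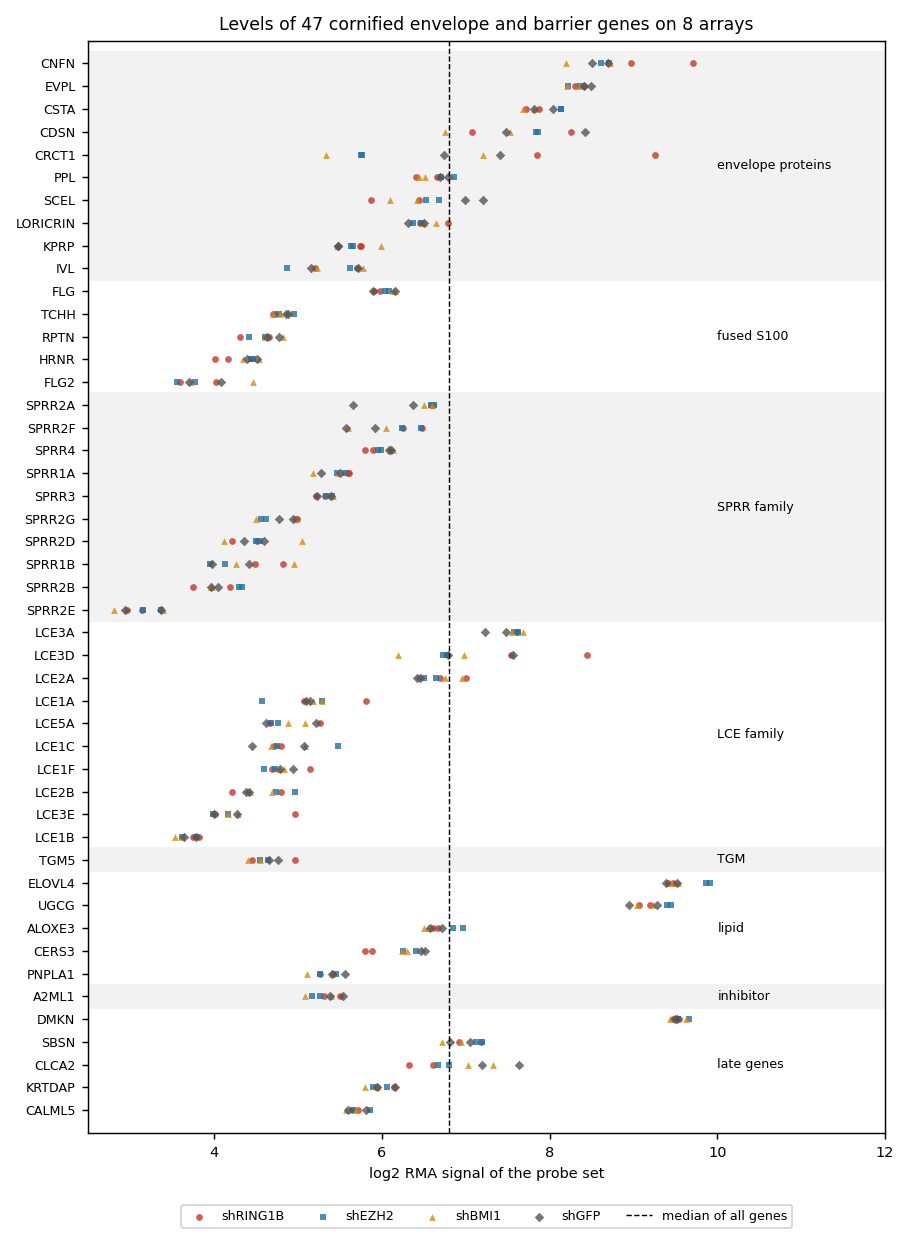
Signal on each of the 8 arrays (log2 RMA signal, horizontal axis) for the 47 members, grouped by role and sorted by mean, with 1 symbol per array and the median of all genes (6.80) as a dashed line. Most members form tight rows, while CRCT1, LCE3D, CDSN and CNFN spread widely.

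Across the 8 arrays, 9 of the 47 members (19.1%) spanned at least 1 log2 unit between their lowest and highest value, against 2.17% of all genes. The cysteine-rich C-terminal protein gene CRCT1 had the widest span of all 14884 genes, at 3.92. LCE3D was the 6th widest at 2.25, corneodesmosin (CDSN), an adhesion protein of the cornified layer, the 24th at 1.67 and CNFN the 41st at 1.51. The CDSN span depends on the probe set, since the gene's other distinct probe set spanned 0.20, from 6.22 to 6.42. The others were SCEL (1.34), CLCA2 (1.31), LCE1A (1.24), LCE1C (1.03) and SPRR1B (1.00). Of these, LCE1A, LCE1C and SPRR1B were dim, with means of 5.18, 4.88 and 4.37, below the 25th percentile of all genes. For the 4 widest members, much of the spread lay between arrays of 1 hairpin. The array labelled 2 minus the array labelled 1 gave CRCT1 differences of 1.41 in shRING1B, -0.01 in shEZH2, 1.87 in shBMI1 and 0.67 in shGFP cells. For LCE3D these were 0.90, -0.05, 0.78 and 0.78 in the same order of hairpins, and for CDSN 1.19, -0.02, 0.77 and 0.95. CNFN gave 0.74 in shRING1B, -0.09 in shEZH2, 0.52 in shBMI1 and 0.19 in shGFP cells. In the shRING1B, shBMI1 and shGFP pairs all 4 genes were therefore higher on the array labelled 2, and in the shEZH2 pair all 4 were nearly equal. Not all other wide members followed this. CLCA2 gave -0.28, -0.13, -0.29 and -0.43 in the same order of hairpins, and SCEL 0.58, 0.15, 0.32 and 0.22. In shEZH2 cells LCE1A differed by 0.72, LCE1C by -0.73 and SPRR1B by -0.17. At the other end, dermokine spanned 0.21, SPRR3 0.20 and trichohyalin (TCHH) 0.25.

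RING1B knockdown was the first comparison. With shRING1B against shGFP, 0 of 47 members passed an adjusted p of 0.05 with limma, and the percentage of all genes that passed was 0. At an unadjusted p under 0.05 there were 11 members (23.4%), against 8.60% of all genes. Of these, 6 members were higher (all genes 4.80%) and 5 lower (all genes 3.80%). Both shRING1B arrays lay above both shGFP arrays for 10 members (21.3%, all genes 18.2%) and below both for 8 (17.0%, all genes 19.1%). The median log2 change was -0.0023 over the members and -0.0028 over all genes, with 22 members above 0 and 25 below. The standard error of a member's change ranged from 0.083 to 0.61, with a median of 0.136, against a median of 0.111 over all genes. Markers of the keratinocyte lineage were lower on the same arrays, with 8 of 8 measured markers below 0 (median -0.25) and 4 at an unadjusted p under 0.05, KRT5 (-0.34), KRT14 (-0.50), DSG3 (-0.58) and DSP (-0.36). None of the 8 passed the adjusted test, and their part in the values of the members was not tested.

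The member with the smallest p-value was CERS3, the ceramide synthase that makes the ultra-long-chain ceramides of the barrier. CERS3 stood at 5.80 and 5.88 in shRING1B cells, against 6.47 and 6.51 in shGFP cells. The groups did not overlap, and the shRING1B arrays were also below all 4 arrays of the other knockdowns. The change was -0.65 ± 0.09 (95% interval -0.86 to -0.44, 1.57-fold lower), 13th of all genes by p-value, with an adjusted p of 0.102.

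CLCA2, an accessory protein of chloride channels in stratified epithelium, stood at 6.61 and 6.33 in shRING1B cells, against 7.63 and 7.20 in shGFP cells. Its groups did not overlap, and the change was -0.95 ± 0.17 (1.93-fold lower, adjusted p = 0.207), the 4th lowest of all genes. SCEL encodes sciellin, a precursor of the envelope. It stood at 5.87 and 6.45 in shRING1B cells, against 6.99 and 7.21 in shGFP cells, with a change of -0.94 ± 0.19 (1.92-fold lower, adjusted p = 0.273), the 5th lowest of all genes. Again the groups did not overlap. Hornerin (HRNR), a fused S100-type protein related to filaggrin, stood at 4.17 and 4.01 in shRING1B cells, against 4.51 and 4.39 in shGFP cells (-0.36 ± 0.10, adjusted p = 0.387), in the dim range.

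On the higher side, SPRR2F, an SPRR cross-bridging protein, stood at 6.25 and 6.48 in shRING1B cells, against 5.57 and 5.91 in shGFP cells (0.62 ± 0.18, 1.54-fold higher, adjusted p = 0.394). LCE2A stood at 7.01 and 6.69 in shRING1B cells, against 6.45 and 6.42 in shGFP cells (0.42 ± 0.13, adjusted p = 0.409), and without the first shRING1B array its change was 0.26. Neither gene's groups overlapped. SPRR2 genes are near copies of each other, as are genes within an LCE subfamily, and RNA of 1 can bind probes of another, so a value is uncertain as to which member it measures.

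CRCT1, LCE3D and CNFN were chosen after their values were seen. CRCT1 stood at 7.85 and 9.25 in shRING1B cells, against 6.74 and 7.41 in shGFP cells, without overlap. Its change of 1.47 ± 0.61 (95% interval 0.06 to 2.88, 2.77-fold higher) was the highest of all 14884 genes, but 1142nd by p-value, with an adjusted p of 0.555. Without the second shRING1B array it was 0.77, and without the first 2.17. LCE3D stood at 7.54 and 8.45 in shRING1B cells, against 6.78 and 7.56 in shGFP cells, and these groups overlapped. Its change was 0.82 ± 0.36 (adjusted p = 0.586), and 0.37 without the second shRING1B array, 0.44 without the first shGFP array and 1.28 without the first shRING1B array. CNFN, a small protein of the envelope, stood at 8.97 and 9.71 in shRING1B cells, against 8.50 and 8.69 in shGFP cells, without overlap (0.74 ± 0.24, adjusted p = 0.438, and 0.37 without the second shRING1B array).

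**Figure D3:**
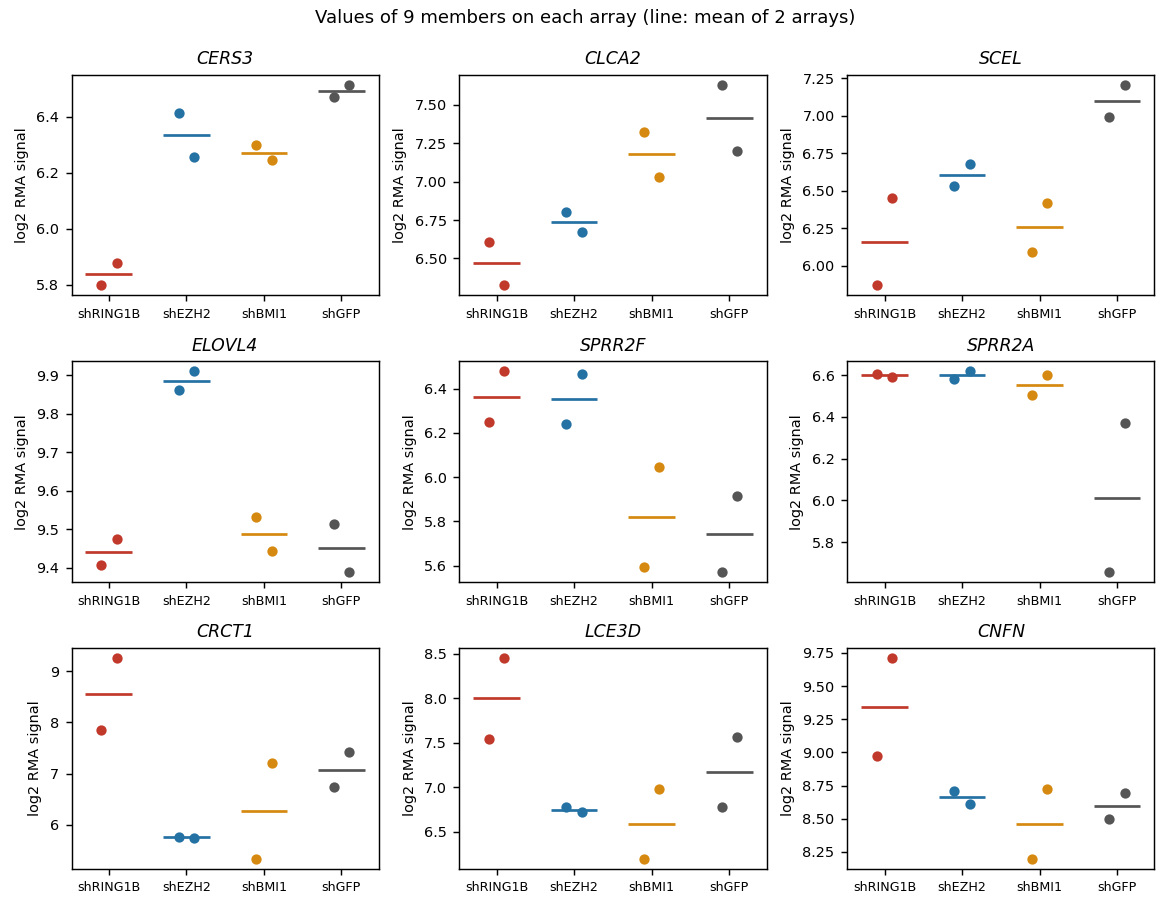
Signal of 9 members on each array (log2 RMA signal, vertical axis, scaled separately for each gene and not starting at 0), with shRING1B, shEZH2, shBMI1 and shGFP from left to right. Points are arrays and lines are means of 2 arrays; CERS3 is lowest in shRING1B cells, ELOVL4 highest in shEZH2 cells, and both CRCT1 points of shRING1B cells lie above all others.

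By role, the shRING1B values were mixed. The 10 envelope proteins had a median of -0.038 with 5 above 0, and ranged from -0.94 (SCEL) to 1.47 (CRCT1). All 5 fused S100-type genes (FLG, FLG2, RPTN, TCHH and HRNR) were below 0, from -0.36 to -0.081. The 10 SPRR genes had a median of 0.047 with 5 above 0, and the 10 LCE genes a median of 0.18 with 9 above 0. Of the 5 lipid genes 1 was above 0, with a median of -0.010. No gene in any of these groups passed the test. The best-known envelope precursors did not pass either. Involucrin (IVL) stood at 5.20 and 5.71 in shRING1B cells, against 5.72 and 5.15 in shGFP cells, and loricrin at 6.46 and 6.79 in shRING1B cells, against 6.31 and 6.50 in shGFP cells. Filaggrin (FLG) stood at 5.90 and 5.97 in shRING1B cells, against 6.15 and 5.90 in shGFP cells. For these 3 genes the groups overlapped, and their 95% intervals ran from -0.69 to 0.73, from -0.08 to 0.52 and from -0.32 to 0.15.

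With shEZH2 against shGFP, 0 of 47 members passed the adjusted test, against 0.732% of all genes. At an unadjusted p under 0.05 there were 9 members (19.1%), 7 of them higher and 2 lower, against 16.2% of all genes, with 7.53% of all genes higher and 8.65% lower. Both shEZH2 arrays lay above both shGFP arrays for 13 members (27.7%, all genes 23.1%) and below both for 12 (25.5%, all genes 27.0%). The median log2 change was -0.00056 over the members and -0.0085 over all genes, with 23 members above 0 and 24 below. Single markers of 2 other cell types were higher in the same arrays. The fibroblast marker DCN stood at 8.03 and 7.86 in shEZH2 cells, against 6.94 and 7.08 in shGFP cells (0.93, adjusted p = 0.0109), and the melanocyte marker MLANA at 4.80 and 4.85 in shEZH2 cells, against 4.18 and 4.19 in shGFP cells (0.64, adjusted p = 0.0460). They were 1 of 3 measured fibroblast markers and 1 of 5 measured melanocyte markers to pass, and 0 of 3 leukocyte and 0 of 3 endothelial markers passed. Over the fibroblast list the mean signal was 6.26 and 6.47 in shEZH2 arrays, against 5.73 and 5.88 in shGFP arrays. Over the melanocyte list it was 5.17 and 5.11 in shEZH2 arrays, against 5.04 and 5.05 in shGFP arrays, but MLANA alone carried this, since the other 4 markers lay between -0.15 and 0.0024 and the median change of the list was -0.0084. Of the fibroblast markers, LUM was at 0.89 and THY1 at -0.15. The 8 keratinocyte lineage markers were split, with 3 above 0 and 5 below, from -0.57 (KRT14) to 0.43 (DSG3), and a median of -0.18. At an unadjusted limma p under 0.05, 2 of them were higher and 1 lower, and 0 passed the adjusted test. The part of all these markers in the values of the barrier genes was not tested.

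The smallest p-value among the members belonged to ELOVL4, which elongates the fatty acids of barrier ceramides. ELOVL4 stood at 9.86 and 9.91 in shEZH2 cells, against 9.51 and 9.39 in shGFP cells. The 4 arrays of the other knockdowns, at 9.41 to 9.53, lay close to those of shGFP. The change was 0.44 ± 0.09 (95% interval 0.23 to 0.64, 1.35-fold higher, adjusted p = 0.0853). Another lipid gene, ALOXE3, encodes a lipoxygenase-family enzyme of barrier lipid metabolism. ALOXE3 stood at 6.97 and 6.85 in shEZH2 cells, against 6.72 and 6.58 in shGFP cells (0.26 ± 0.09, adjusted p = 0.225). The lipid genes with a probe set had a median of 0.26, with 3 of 5 above 0 (ELOVL4, ALOXE3 and UGCG) and 2 below 0 (CERS3 and PNPLA1). None of the 5 passed the test.

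CLCA2 stood at 6.80 and 6.67 in shEZH2 cells, against 7.63 and 7.20 in shGFP cells, without overlap (-0.68 ± 0.17, 1.60-fold lower, adjusted p = 0.118). SCEL stood at 6.53 and 6.68 in shEZH2 cells, against 6.99 and 7.21 in shGFP cells, also without overlap (-0.49 ± 0.19, adjusted p = 0.267). SPRR2F stood at 6.24 and 6.47 in shEZH2 cells, against 5.57 and 5.91 in shGFP cells (0.61 ± 0.18, adjusted p = 0.169). Each of the 3 thus lay on the same side of shGFP as in shRING1B cells, against the same 2 control arrays. SPRR2A, which encodes another SPRR protein, stood at 6.58 and 6.62 in shEZH2 cells, against 5.66 and 6.37 in shGFP cells (0.59 ± 0.20, adjusted p = 0.205). Its groups did not overlap, but the shGFP arrays differed from each other by 0.71, and the change was 0.23 without the first shGFP array and 0.94 without the second.

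CRCT1, chosen after its values were seen, stood at 5.76 and 5.75 in shEZH2 cells, against 6.74 and 7.41 in shGFP cells. The groups did not overlap, and the change of -1.32 ± 0.61 (adjusted p = 0.336) was the third lowest of all genes. By role, 5 of 10 envelope proteins were above 0 (median -0.042), 1 of 5 fused S100-type genes (median -0.014), 7 of 10 SPRR genes (median 0.087) and 4 of 10 LCE genes (median -0.040).

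**Figure D4:**
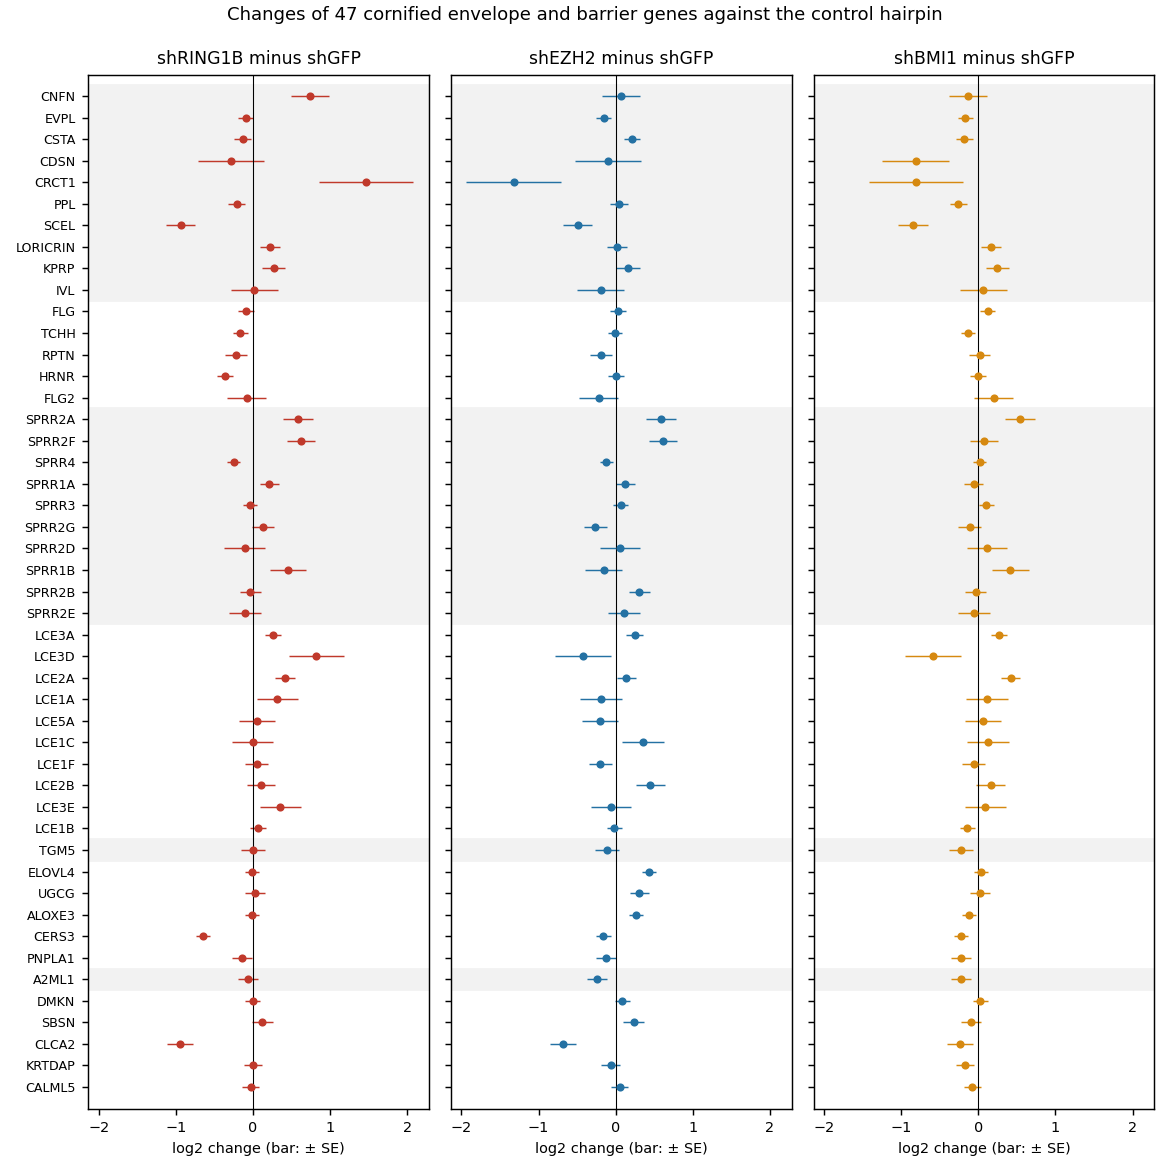
Log2 change against shGFP (horizontal axis, points, with bars of ± 1 standard error from limma) for the 47 members, in shRING1B (left), shEZH2 (middle) and shBMI1 (right) cells. Most points lie near 0; CRCT1 is at 1.47 in shRING1B and -1.32 in shEZH2 cells with the widest bars, and SCEL is at -0.94, -0.49 and -0.84 in the 3 panels from left to right.

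With shBMI1 against shGFP, 0 of 47 members passed the adjusted test, and the percentage of all genes that passed was 0. At an unadjusted p under 0.05 there were 6 members (12.8%), against 5.58% of all genes. Of these, 3 were higher (all genes 2.89%) and 3 lower (all genes 2.69%). Both shBMI1 arrays lay above both shGFP arrays for 7 members (14.9%, all genes 14%) and below both for 8 (17.0%, all genes 17.8%). The median log2 change was -0.037 over the members and -0.0094 over all genes, with 22 members above 0 and 25 below. All 8 keratinocyte lineage markers were below 0 here, as in shRING1B but not in shEZH2 cells. They ran from -0.48 to -0.058 with a median of -0.18, 1 of them at an unadjusted p under 0.05. All 3 measured fibroblast markers were above 0 in shBMI1 cells, with a median of 0.29 and DCN at 0.45. MLANA was at 0.29, while the melanocyte list had a median of -0.061. In shRING1B cells LUM was at 0.49, DCN at 0.13 and THY1 at -0.18. None of these passed the adjusted test. The part of all these markers in the members' values was not tested.

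SCEL had the smallest p-value. It stood at 6.10 and 6.42 in shBMI1 cells, against 6.99 and 7.21 in shGFP cells, without overlap. The change was -0.84 ± 0.19 (95% interval -1.29 to -0.40, 1.79-fold lower, adjusted p = 0.60), the third lowest of all genes. CERS3 stood at 6.30 and 6.24 in shBMI1 cells, against 6.47 and 6.51 in shGFP cells (-0.22 ± 0.09, adjusted p = 0.884). Periplakin (PPL), the partner of envoplakin in the scaffold, stood at 6.44 and 6.52 in shBMI1 cells, against 6.69 and 6.79 in shGFP cells (-0.26 ± 0.11, adjusted p = 0.884). Neither gene's groups overlapped.

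LCE2A stood at 6.95 and 6.76 in shBMI1 cells, against 6.45 and 6.42 in shGFP cells (0.42 ± 0.13, adjusted p = 0.722). SPRR2A stood at 6.51 and 6.60 in shBMI1 cells, against 5.66 and 6.37 in shGFP cells (0.54 ± 0.20, adjusted p = 0.828, and 0.18 without the first and 0.90 without the second shGFP array). LCE3A stood at 7.69 and 7.56 in shBMI1 cells, against 7.48 and 7.23 in shGFP cells (0.27 ± 0.11, adjusted p = 0.881, and 0.14 without the second shGFP array). None of these 3 had overlapping groups. By role, 3 of 10 envelope proteins were above 0 (median -0.17), 3 of 5 fused S100-type genes (median 0.015), 6 of 10 SPRR genes (median 0.048), 7 of 10 LCE genes (median 0.10) and 2 of 5 lipid genes (median -0.12).

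All 6 knockdown arrays lay above both shGFP arrays for 3 members, SPRR2A, LCE2A and LCE3A, and below both for 3 others, SCEL, CERS3 and envoplakin (EVPL). Each count is 6.38% of the members, against 3.55% of all genes above and 4.16% below. The comparisons share the shGFP arrays, so these are not separate observations. Envoplakin differed little, at 8.30 and 8.41 in shRING1B, 8.37 and 8.22 in shEZH2 and 8.35 and 8.21 in shBMI1 cells, against 8.41 and 8.49 in shGFP cells. Among the 5 late secreted and other differentiation genes, dermokine and the keratinocyte protein KRTDAP differed from shGFP by -0.17 to 0.083 in the 3 comparisons. TGM5, a transglutaminase, stood at 4.45 and 4.96 in shRING1B, 4.65 and 4.55 in shEZH2 and 4.55 and 4.41 in shBMI1 cells, against 4.66 and 4.76 in shGFP cells. The protease inhibitor A2ML1 stood at 5.31 and 5.50 in shRING1B, 5.27 and 5.16 in shEZH2 and 5.08 and 5.40 in shBMI1 cells, against 5.54 and 5.39 in shGFP cells. Both were the only measured members of their role.

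Between knockdowns, 0 of 47 members passed the adjusted test in any of the 3 pairs. The percentage of all genes that passed was 0.578 for shRING1B against shEZH2, 0.0134 for shRING1B against shBMI1 and 0.974 for shEZH2 against shBMI1. At an unadjusted p under 0.05 there were 11 members (23.4%, all genes 15.6%), 8 (17.0%, all genes 9.18%) and 9 (19.1%, all genes 15.1%) in the same order of pairs. The genes named for these pairs were chosen after their values were seen. CRCT1 stood apart most, at 7.85 and 9.25 in shRING1B cells, against 5.76 and 5.75 in shEZH2 cells, a difference of 2.79 ± 0.61 (95% interval 1.39 to 4.20, 6.94-fold higher, adjusted p = 0.0975). CERS3, at 5.80 and 5.88 in shRING1B cells, against 6.41 and 6.26 in shEZH2 cells, differed by -0.50 ± 0.09 (adjusted p = 0.0665). ELOVL4, at 9.41 and 9.48 in shRING1B cells, against 9.86 and 9.91 in shEZH2 cells, differed by -0.45 ± 0.09 (adjusted p = 0.0824). None of the 3 had overlapping groups. Of the 8 keratinocyte lineage markers, 4 were above 0 and 4 below between these hairpins, with a median of -0.016, and 1 passed. This was DSG3, at 9.22 and 9.46 in shRING1B cells, against 10.33 and 10.37 in shEZH2 cells (-1.01, limma adjusted p = 0.0187), and its part was not tested.

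For shRING1B against shBMI1, CERS3 differed by -0.43 ± 0.09 (adjusted p = 0.245) and LCE3D by 1.41 ± 0.36 (adjusted p = 0.312). LCE3D stood at 7.54 and 8.45 in shRING1B cells, against 6.20 and 6.98 in shBMI1 cells, without overlap. For shEZH2 against shBMI1, ELOVL4 differed by 0.40 ± 0.09 (adjusted p = 0.0860) and ALOXE3 by 0.38 ± 0.09 (adjusted p = 0.106). Cystatin A (CSTA), a cysteine protease inhibitor that is cross-linked into the envelope, stood at 8.14 on both shEZH2 arrays, against 7.82 and 7.68 in shBMI1 cells (0.39 ± 0.11, adjusted p = 0.142).

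Position along chromosome 1 was compared for the run of 44 protein-coding genes from TCHH to LORICRIN, the core of the epidermal differentiation complex. It held 29 of the 47 members, and 12 further genes of the run had a probe set. The members in the run were dimmer, with a median level of 4.90 against 6.82 for those outside, and RMA compresses differences of dim probe sets. Changes against shGFP were less precise for some of them. The median standard error was 0.21 for LCE and 0.16 for SPRR genes, but 0.10 for fused S100-type genes, against 0.11 over all genes. In shRING1B cells the members in the run had a median change of 0.064, with 18 of 29 above 0, and the 18 members outside it a median of -0.043, with 4 above 0. In shEZH2 cells these were -0.00056 with 14 above 0 in the run and -0.011 with 9 above 0 outside. In shBMI1 cells they were 0.078 with 19 above 0 in the run and -0.18 with 3 above 0 outside. These are descriptions, since neighbouring genes and near copies are not independent and no test was made of them.

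The high shRING1B values did not extend along a whole stretch. From LCE5A through the LCE3 genes in chromosomal order, the changes were 0.05 for LCE5A, 1.47 for CRCT1, 0.35 for LCE3E, 0.82 for LCE3D, 0.12 for LCE3C, 0.0011 for LCE3B and 0.26 for LCE3A. LCE3C and LCE3B are not on the list of 57. The opposite end of the run held SPRR2A at 0.59 and SPRR2F at 0.62, separated by SPRR2B at -0.04 and SPRR2E at -0.10. Members with the AP-1 motif in their window had median changes of 0.010 in shRING1B, -0.039 in shEZH2 and 0.040 in shBMI1 cells. Those without it had medians of -0.0022, 0.026 and 0.0041 in the same order.

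**Figure D5:**
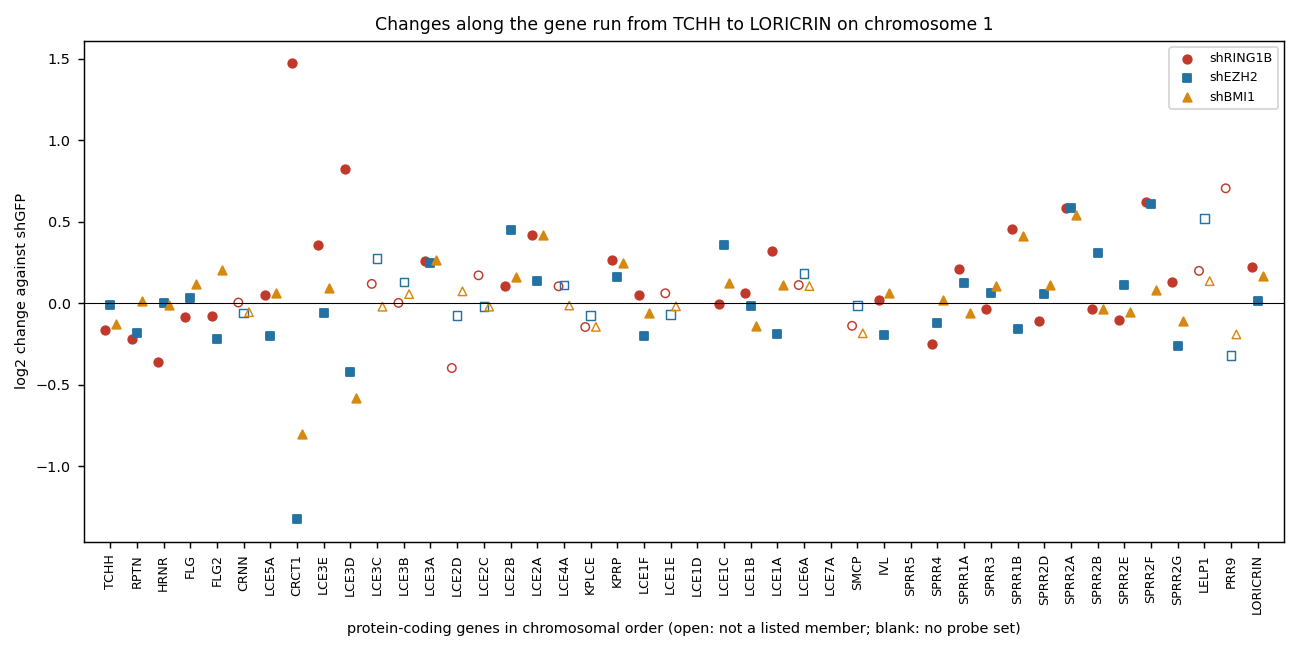
Log2 change against shGFP (vertical axis) for the 44 protein-coding genes from TCHH to LORICRIN in chromosomal order (horizontal axis, not to distance), with red circles for shRING1B, blue squares for shEZH2 and orange triangles for shBMI1; open symbols are genes not on the list. CRCT1 and LCE3D lie above 0 in shRING1B and below 0 in the other knockdowns, and genes directly beside them lie nearer 0. Neither passed the adjusted test. The shBMI1 arrays of both genes and the shRING1B arrays of LCE3D overlapped those of shGFP.

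Other genes of the pathway were read from 3 further lists. Among regulators of late differentiation, 14 of 21 listed were measured, and AHR passed in 2 of the 6 comparisons. AHR, the aryl hydrocarbon receptor, which promotes barrier gene expression in keratinocytes, rose to 10.57 and 10.54 in shEZH2 cells, against 10.02 and 9.996 in shGFP cells (0.55 ± 0.08, adjusted p = 0.0298), and also differed from the 9.998 and 9.96 of shBMI1 cells (0.57, adjusted p = 0.0210). Its values were 10.31 and 10.25 in shRING1B cells, against the same control arrays (0.27 ± 0.08, adjusted p = 0.394). The transcription factors KLF4, GRHL3, OVOL1 and ZNF750 did not pass in any comparison with shGFP. In barrier lipid processing, 9 of 23 listed genes were measured and 0 passed in any of the 6 comparisons. In envelope processing and desquamation 9 of 16 were measured, and 0 passed against shGFP. Between knockdowns 1 of these 9 passed, the membrane protease ST14, at 7.69 and 7.70 in shEZH2 cells, against 7.18 and 7.14 in shBMI1 cells (0.54, adjusted p = 0.0310).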

How the data were processed

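Total RNA of SCC13 cells was labelled with biotin and hybridised to 8 Affymetrix whole-transcript arrays, per the labels' protocols. The deposited values are log2 signals of probe sets that the authors computed with RMA, per the submitters' processing notes. These name limma as well but no version, and a genome build is not given in the sources used here. As it quantile-normalizes, RMA hides a shift shared by most genes and compresses differences of dim probe sets.

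Of 53617 probe sets, 16098 had 1 gene symbol in the platform annotation, 0 had more than 1, and the 37519 without a symbol were not fitted. The probe set with the highest mean over the 8 arrays was used for each of 779 genes with several. CDSN has 4, of which 3 hold identical values and the other gave changes of -0.11, 0.01 and -0.10 in shRING1B, shEZH2 and shBMI1 cells, where the one used gave -0.29, -0.10 and -0.81.

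All 14884 genes were fitted in R 4.3.3 (limma 3.58.1), with 1 mean per hairpin over 8 arrays (4 residual degrees of freedom) and empirical Bayes moderation. Two-sided p-values were adjusted by the Benjamini-Hochberg method over all genes within each of 6 comparisons, with a threshold of 0.05. Errors are standard errors, and the 2 arrays per hairpin limit the precision. An exact permutation test of 2 against 2 arrays could not go below p = 0.333 and was not used. Fitting was tested on simulated data.

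The members and lists were chosen with earlier results of these data known. Changes are given for the 6 members with the smallest p-values in each comparison with shGFP. Some other genes are said to have been chosen after their values were seen. The rest are given outside this rule, by role, chromosomal position, list or array overlap. Olfactory receptor genes, planned as a reference for dim signal, could not serve, since 1 had a probe set, so brightness is given against all genes. Promoter sequences are from RefSeq on GRCh38.p14, with the start listed first for each gene. Alternatives were a block for the replicate number, a fit of the compared arrays alone, no shEZH2 arrays, quantile normalization again, median centring, no dim genes, the mean of probe sets, a trended robust variance, and each array left out in turn.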

Additional observations from a re-analysis of the deposited data

How the results depend on the processing

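The count of members past the threshold was 0 in all 6 comparisons and stayed at 0 in each under most alternatives, including a range of 0 to 0 when any 1 array was left out. Without the dimmest 30% of genes, which leaves 25 members, it was 1 for shRING1B against shGFP (CERS3, adjusted p = 0.0349), 1 for shEZH2 against shGFP (ELOVL4, 0.0334), 3 for shRING1B against shEZH2 (CRCT1, CERS3 and ELOVL4) and 2 for shEZH2 against shBMI1 (ALOXE3 and ELOVL4). This filter tests fewer genes. With a trended robust variance it was 2 for shRING1B against shGFP (CERS3, adjusted p = 0.0417, and CLCA2, 0.0241), 2 for shEZH2 against shGFP (ELOVL4, 0.00612, and CLCA2, 0.0278), 2 for shRING1B against shEZH2 (CERS3 and ELOVL4) and 1 for shEZH2 against shBMI1 (ELOVL4), and the cause was not tested. Over all genes the counts were then 36, 648, 555 and 640 in the same order, against 0, 109, 86 and 145, and without dim genes 11, 409, 361 and 445. With the replicate number as a block, 2 members passed for shEZH2 against shGFP (SPRR2F, adjusted p = 0.0484, and CLCA2, 0.0399) and 1 for shRING1B against shEZH2 (CRCT1, 0.0390), and the other counts remained 0. The replicate numbers were not taken as a pairing, because the labels tie no number to a batch and the differences between the 2 arrays of a hairpin correlated weakly between hairpins. Across genes the correlations with shEZH2 were 0.00066 (shRING1B), 0.020 (shGFP) and 0.086 (shBMI1). Those among the other hairpins were all positive, at 0.091 (shRING1B and shBMI1), 0.12 (shRING1B and shGFP) and 0.25 (shBMI1 and shGFP).

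Of 359 alternative values for 23 named changes, 0 turned direction and 10 passed the threshold. The count of 0 is a weak check, since many of these alternatives could not turn a direction. The replicate block, the trended robust variance, the dim filter and fits without arrays of other hairpins leave a change as it was. For groups without overlap, as in nearly all named changes, leaving out an array could not turn it either. Quantile normalization again and median centring could move a change, but did not turn its direction. The median change of the members stayed between -0.053 and 0.048 for shRING1B, -0.031 and 0.054 for shEZH2 and -0.095 and -0.0086 for shBMI1.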

Other observations

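KLK7, a protease that sheds cornified cells and is no member, is given because its array values were high where those of CRCT1 were, and it was chosen after its values were seen. KLK7 stood at 8.23 and 9.17 in shRING1B, 7.18 and 7.05 in shEZH2 and 6.36 and 7.38 in shBMI1 cells, against 7.15 and 7.33 in shGFP cells. In shRING1B cells its change was 1.46 ± 0.36 (limma adjusted p = 0.346). KRT10, a keratin of suprabasal cells, stood at 6.66 and 6.87 in shRING1B, 6.62 and 6.67 in shEZH2 and 6.58 and 6.80 in shBMI1 cells, against 7.11 and 7.32 in shGFP cells. All 6 knockdown arrays were below both shGFP arrays, with changes of -0.45, -0.57 and -0.52 in that order (limma adjusted p = 0.366, 0.0892 and 0.617). KRT10 was also chosen after its values were seen, and the other suprabasal markers did not all follow it. Of the 6 measured, KRT10 included, 2 were above 0 in shRING1B, 2 in shEZH2 and 1 in shBMI1 cells. The list medians were -0.046, -0.042 and -0.13 in the same order. PRR9, which lies beside LORICRIN and is not on the list, was chosen after its values were seen. It had a change of 0.70 in shRING1B, -0.32 in shEZH2 and -0.19 in shBMI1 cells.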
